A study of Apostichopus japonicus with 3 samples.

Results

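Transcripts named as metalloproteinases were followed across 3 light conditions in body wall from Apostichopus japonicus, a sea cucumber. Of 21290 isotigs, which are assembled transcript sequences that can be whole messages, splice forms or fragments, 36 were taken because the name of their first KEGG orthology entry contains metalloproteinase, metallopeptidase inhibitor, meprin, astacin or disintegrin. They comprised 16 matrix metalloproteinase (MMP) isotigs, 9 of the ADAM family, 7 of the ADAMTS family, and 4 named astacin or meprin, under 20 distinct orthologies. Although the search included inhibitors, 0 isotigs carried an inhibitor name, so the list holds proteases alone.

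The control animals were held at an intensity near 100 lux of natural light. A second group spent 2 h in covered, fully dark water, and the last spent 2 h under strong light near 2000 lux. Each condition is represented by 1 library, and neither the number nor the age of the animals is given in the sources used here. No difference below could therefore be set against the spread between animals, every ratio compares one library with another, and no p-value is given. The tissue label, extraction protocol and title name the body wall, whereas the source label names the intestine.

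Matrix metalloproteinases are zinc enzymes that are made as inactive proenzymes and cut collagens and other matrix proteins once their propeptide is removed. ADAM proteins are membrane-anchored relatives that release the outer parts of other membrane proteins, and ADAMTS proteins are their secreted counterparts, which work on procollagens and proteoglycans in mammals. Astacins are named after a digestive protease of crayfish and include the meprins. The body wall of sea cucumbers is a collagen-rich connective tissue whose stiffness the animal can alter. Roles given below for single enzymes come from mammals unless stated.

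The libraries held 1570290 reads in control, 1698268 in the dark and 1644816 under strong light. A ribosomal protein and translation list took 8.02% of reads in control, 12.8% in the dark and 7.84% under strong light, so other transcripts shared a smaller remainder in the dark library. Fibrillar collagen isotigs summed to 20542, 18918 and 22854 RPKM (reads scaled to isotig length and library size) in that order. A list of digestive enzyme names, 23 of whose 55 isotigs are named neurotrypsin, held 0.404%, 0.356% and 0.391% of reads. Trypsin isotigs summed to 1339, 1323 and 1452 RPKM, alpha-amylase to 15.7, 16.0 and 11.7 RPKM, and carboxypeptidase A1 to 0.470, 0 and 0.896 RPKM. Pancreatic lipase-related protein 1 stood at 300.4, 316 and 160 RPKM, aminopeptidase N isotigs summed to 99.0, 42.0 and 122, and maltase-glucoamylase to 117, 55.0 and 90.9 RPKM. Of the 43 digestive isotigs averaging at least 1 RPKM, 15 (34.9%) were at least 2-fold lower in the dark than in control. At the same minimum this held for 24.0% of all isotigs and 29.6% of those with a KEGG entry. The median log2 ratio was -0.55 for the digestive list and -0.56 for isotigs with a KEGG entry. The part of these tissue markers in the results below was not tested. In bulk tissue, fewer cells of a type and less RNA per cell cannot be told apart.

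Reads of the proteases were concentrated in a few isotigs. Averaged over the libraries, 27 of the 36 isotigs reached 1 RPKM and entered the counts below, and the other 9 had at most 5 reads in any library. The 4 isotigs with the most reads, named MMP-24, MMP-14, ADAM10 and MMP-13, took 65.9% of the list's reads in control, 68.3% in the dark and 64.3% under strong light. Reads were found in all 3 libraries for 27 isotigs, and 6 had none in the dark.

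In control the highest levels were those of 3 MMP isotigs, 2 of them membrane-inserted. MMP-14 (isotig19745), a membrane-type enzyme that activates other MMPs, stood at 463 RPKM in control, 296 in the dark and 325 under strong light. MMP-24 (isotig14227), of the same membrane-type group, stood at 442, 260 and 358 RPKM. MMP-13 (isotig24202), collagenase 3, which cuts fibrillar collagen, stood at 425, 151 and 435 RPKM. The exact 95% Poisson intervals of these 3 control levels overlapped, at 427 to 502, 416 to 468 and 383 to 471 RPKM, so their order in control cannot be read from the counts. In the dark MMP-13 (127 to 178 RPKM) lay below both MMP-24 (241 to 280) and MMP-14 (268 to 326), whose intervals overlapped. Under strong light the MMP-13 isotig had the highest value, 435 RPKM (394 to 480), above the intervals of the MMP-24 (336 to 381) and MMP-14 (295 to 357) isotigs. These are orders of single isotigs. Summed over all isotigs of a name, MMP-24 (5 isotigs) stood at 552, 300 and 437 RPKM. MMP-14 (3 isotigs) stood at 499, 309 and 349 RPKM. By these sums MMP-13 was not above MMP-24 under strong light. A sum over fragments of the same message counts it more than once, so the order of the enzymes is not settled.

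ADAM10 (isotig13190), the sheddase that cleaves Notch, was the highest of the ADAM isotigs in all 3 libraries, at 138, 53.0 and 170 RPKM in control, dark and strong light. An ADAM12 isotig (isotig19402) followed at 124, 47.7 and 127 RPKM. Their Poisson intervals overlapped in control (127 to 150 and 106 to 145 RPKM) and in the dark (46.5 to 60.1 and 37.0 to 60.4), but not under strong light (158 to 183 and 109 to 147). Summed over all isotigs of a name, ADAM12 (5 isotigs) stood at 287, 99.9 and 315 RPKM. This was above ADAM10 (2 isotigs), at 175, 60.3 and 240 RPKM. Such sums can count fragments of the same message more than once, so the order of the 2 enzymes is not settled. The highest ADAMTS isotig was ADAMTS2 (isotig20219), which trims procollagen, at 39.8, 14.6 and 42.0 RPKM. A single astacin isotig (isotig07422) was above the filter, at 14.9, 8.40 and 12.8 RPKM.

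**Figure D1:**
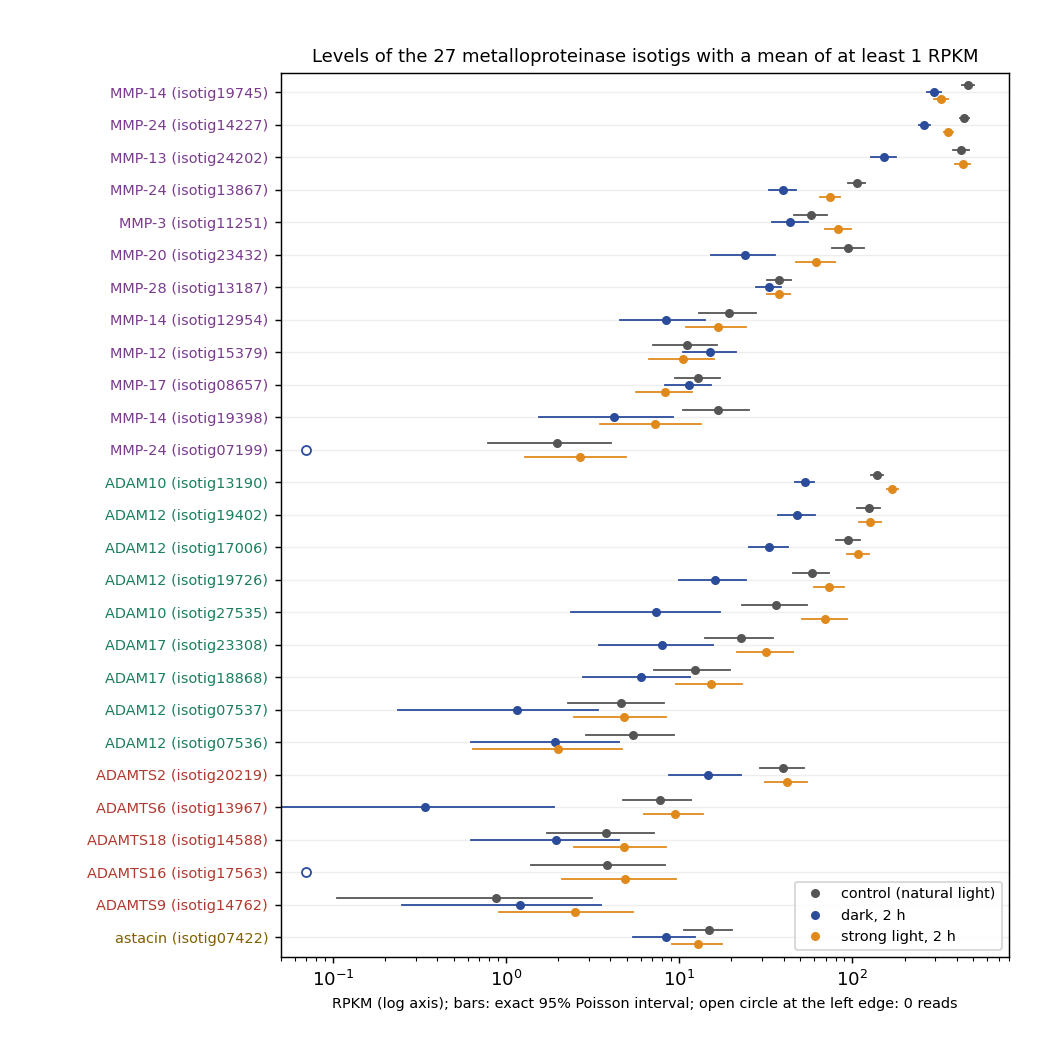
Level of each of the 27 isotigs that averaged 1 RPKM or more, in RPKM on a log axis, with 1 point per library and its exact 95% Poisson interval as a bar; open circles at the left edge mark isotigs with 0 reads, and the dark bar of ADAMTS6 runs past that edge. The dark point lies left of the control point for 25 of the 27 isotigs, and the 3 highest isotigs reach 463, 442 and 435 RPKM.

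The first comparison asked how the proteases stood after 2 h without light. Together the 36 isotigs took 4058 reads in control, 2216 in the dark and 3953 under strong light, or 0.258%, 0.130% and 0.240% of the libraries. Their share in the dark was 1.98-fold lower than in control, with an exact conditional binomial 95% interval, called the counting interval below, of 1.88 to 2.09. This interval covers counting error only, and reads without molecular identifiers are not independent molecules. Of the 27 isotigs above the filter, 17 were at least 2-fold lower in the dark on the log2(RPKM + 0.5) scale and 0 were at least 2-fold higher, against 24.0% lower and 7.09% higher among all 18225 isotigs above the filter. The counting interval excluded 1 for 16 of the 17, beside 14.1% of all isotigs and 21.1% of isotigs with a KEGG entry. Among the 6484 isotigs that carry a KEGG entry, 29.6% were at least 2-fold lower. The list's median log2 ratio was -1.38, that of all isotigs -0.31 and that of isotigs with a KEGG entry -0.56; with isotigs at 0 reads set to a floor of 3 counts per library, the first 2 medians were -1.34 and -0.25. After scaling by median-of-ratios size factors, which moved the median of all isotigs from -0.31 to -0.00, 16 of the 27 were at least 2-fold lower beside 16.6% lower and 11.8% higher among all isotigs.

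The ADAM isotigs lay together on the lower side in the dark. On the log2 scale all 9 were below 0, with a range from -2.24 to -0.97 and a median of -1.45, and 8 were at least 2-fold lower. Among all 18225 isotigs above the filter, 11668 were below 0 and 24.0% at least 2-fold lower. The 9 isotigs are named ADAM10, ADAM12 or ADAM17 alone, so they are not 9 separate enzymes. Their summed reads were 1062 in control, 420 in the dark and 1326 under strong light, 2.73-fold lower in the dark (2.44 to 3.07).

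ADAM10 (isotig13190) had 580, 240 and 747 reads in control, dark and strong light, 2.61-fold lower in the dark than in control (2.24 to 3.05). A short ADAM10 isotig (isotig27535) had 23, 5 and 46 reads, 4.97-fold lower in the dark (1.85 to 16.8). The dark library was the lowest of the 3 for both.

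ADAM12, known as meltrin alpha and studied in muscle cell fusion, had 5 isotigs, 3 of them well above the others. Reads of isotig19402 were 164, 68 and 175, a dark level 2.61-fold under control (1.95 to 3.51). Those of isotig17006 were 159, 60 and 190, 2.87-fold lower in the dark (2.12 to 3.92). For isotig19726 they were 74, 22 and 98, 3.64-fold lower (2.23 to 6.15). All 3 stood lowest in the dark, by ratios whose intervals overlapped. The 2 sparse ADAM12 isotigs had 11, 3 and 12 reads (isotig07537) and 13, 5 and 5 reads (isotig07536), so the second was equally low in both exposed libraries. Both were also at least 2-fold lower in the dark, and the counting interval excluded 1 for the first alone. A muscle list of 71 isotigs had 18 (25.4%) at least 2-fold lower in the dark, near the 24.0% of all isotigs. Its median log2 ratio was -0.53, beside -0.56 for isotigs with a KEGG entry. Of the 71, 45 are named myosin heavy chain and 19 titin. From control to dark, troponin C went from 8.21 to 2.11 RPKM, tropomyosin 4 from 7.18 to 2.075 and summed troponin I from 29.6 to 15.1. Summed alpha-actinin went from 429 to 391 RPKM and myosin light chain 6 from 3.09 to 5.15. The part of the muscle list in the ADAM12 values was not tested.

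ADAM17, the enzyme that releases tumour necrosis factor, was represented by 2 isotigs. One (isotig23308) had 21, 8 and 31 reads, 2.84-fold lower in the dark (1.21 to 7.41). The other (isotig18868) had 17, 9 and 22 reads, 2.04-fold lower per library total with an interval from 0.861 to 5.20, and at a log2 ratio of -0.97 on the log2(RPKM + 0.5) scale it was not counted as 2-fold apart. Summed, ADAM17 reads were 38, 17 and 53, 2.42-fold lower in the dark (1.33 to 4.57).

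MMP isotigs were more spread out than the ADAM isotigs. Of 12 above the filter, 6 were at least 2-fold lower in the dark and 0 higher, beside 24.0% and 7.09% of all isotigs. The MMP median log2 ratio was -0.96, with a range from -2.30 to 0.43. Summed MMP reads were 2863 in control, 1740 in the dark and 2475 under strong light, 1.78-fold lower in the dark (1.68 to 1.89). That interval and the interval of the ADAM ratio (2.44 to 3.07) did not overlap, and both ratios are against the same control library.

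Of the MMPs without a membrane-inserted name, 2 were at least 2-fold lower. MMP-13 (isotig24202) had 369, 142 and 396 reads in control, dark and strong light. It was 2.81-fold lower in the dark than in control (2.31 to 3.44). MMP-20 (isotig23432), named after enamelysin, which matures tooth enamel in mammals, had 88, 24 and 60 reads and was 3.97-fold lower in the dark (2.50 to 6.51). Its strong-light value lay between those of the other libraries.

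The membrane-inserted enzymes with the most reads lay nearer to control. MMP-14 (isotig19745) had 593, 410 and 436 reads and was 1.56-fold lower in the dark (1.38 to 1.78). MMP-24 (isotig14227) had 1134, 722 and 963 reads, 1.70-fold lower (1.55 to 1.87). A second MMP-24 isotig (isotig13867) had 297, 120 and 218 reads, 2.68-fold lower (2.16 to 3.34), so isotigs under the same name were not equally low. It took 20.8% of the reads of these 2 MMP-24 isotigs in control (95% Wilson interval 18.7 to 22.9), 14.3% in the dark (12.1 to 16.8) and 18.5% under strong light (16.3 to 20.8). This isotig also matched the MMP-17 orthology with a bit score 99.1% of that of its first entry.

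Another 3 membrane-inserted isotigs, with fewer reads, were also at least 2-fold lower in the dark. MMP-14 (isotig12954) had 30, 14 and 27 reads, 2.32-fold lower (1.19 to 4.73), and this call ended under size factors, where its log2 ratio went from -1.17 to -0.86, and under TMM factors (-0.87). MMP-14 (isotig19398) had 22, 6 and 10 reads, 3.97-fold lower (1.56 to 12.0). MMP-24 (isotig07199) had 7, 0 and 10 reads in control, dark and strong light, at least 2.52-fold lower in the dark when 3 counts stand for 0. The dark library was lowest in each case, on few reads.

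In contrast, 4 MMP isotigs chosen for description after their values were seen lay within 2-fold of control in the dark. MMP-28 (isotig13187), epilysin, an enzyme of epidermis, had 159, 150 and 165 reads, a dark level 1.15-fold under control with an interval from 0.911 to 1.44. MMP-3 (isotig11251), named for stromelysin 1, had 86, 71 and 130 reads, 1.31-fold lower in the dark (0.946 to 1.82). MMP-17 (isotig08657) had 46, 44 and 31 reads, 1.13-fold lower (0.731 to 1.75). MMP-12 (isotig15379), macrophage elastase, was the only MMP isotig above the filter with more reads in the dark, with 23, 34 and 23 reads, 1.37-fold higher (0.782 to 2.43). All 4 dark ratios had counting intervals that include 1, which does not show equal levels. With size factors the log2 ratios of MMP-28 and MMP-17 turned from -0.19 and -0.17 to 0.12 and 0.14. For 3 of these, MMP-3, MMP-12 and MMP-17, another MMP orthology scored at least 90% of the first entry, so the enzyme number is uncertain. For the MMP-12 isotig the other entry, MMP-7 (matrilysin), scored higher, at 122% of the first. For the MMP-17 isotig MMP-24 scored 100% of the first.

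ADAMTS transcripts were scarce, with 91 reads in control, 28 in the dark and 109 under strong light, 3.51-fold lower in the dark (2.28 to 5.58). Of 5 isotigs above the filter, 3 were at least 2-fold lower in the dark, beside 24.0% of all isotigs. The ADAMTS median log2 ratio was -1.42, or -1.11 with 0 reads set to the floor. ADAMTS2 (isotig20219) had 48, 19 and 53 reads, 2.73-fold lower (1.58 to 4.92), and also matched ADAMTS14, another procollagen protease, at 95.7% of the first bit score. ADAMTS6 (isotig13967) had 21, 1 and 27 reads in control, dark and strong light, a 22.7-fold lower dark level whose interval, 3.65 to 939, shows how little a single read fixes it. ADAMTS16 (isotig17563), chosen after its values were seen, had 6, 0 and 8 reads, at least 2.16-fold lower in the dark. ADAMTS18 (isotig14588) had 9, 5 and 12 reads, and ADAMTS9 (isotig14762) had 2, 3 and 6.

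The astacin isotig (isotig07422) had 41, 25 and 37 reads and was 1.77-fold lower in the dark (1.05 to 3.04). Its reads did not cover the transcript: 13.2% of its 1753 bases were covered in control, 13.2% in the dark and 13.9% under strong light. The covered 232, 232 and 243 bases were each read 8.7, 5.3 and 7.5 times on average, so its RPKM, computed over the full length, understates the level of the covered stretch. A second astacin isotig (isotig07423) had 0, 1 and 4 reads. Meprin A alpha (isotig08866) had 1, 1 and 2 reads and meprin A beta (isotig20316) 0, 1 and 0, so neither meprin subunit was measurable at this depth.

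**Figure D2:**
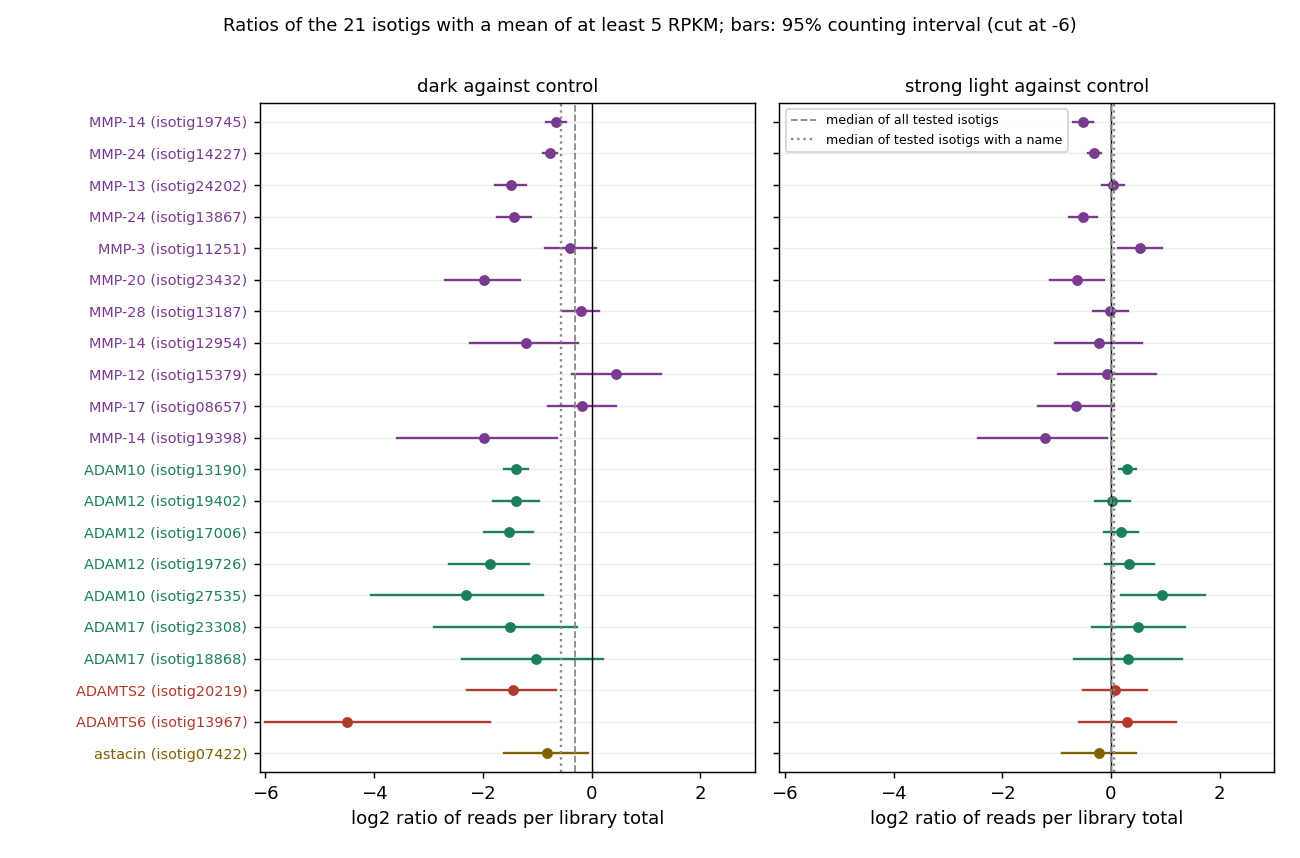
Log2 ratio of reads per library total for the 21 isotigs that averaged 5 RPKM or more, dark against control on the left and strong light against control on the right, with 95% counting intervals as bars and the medians of all isotigs and of named isotigs as vertical lines. On the left the ADAM points lie beyond most of the abundant MMP points, while on the right most intervals reach 0 and the 3 most read membrane-inserted MMP isotigs lie on the lower side.

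Strong light was then set against natural light. The list's share of reads was 1.08-fold lower under strong light (1.03 to 1.12). Differences of at least 2-fold were seen for 1 isotig on the higher side and 2 of 27 on the lower side, beside 7.77% higher and 7.22% lower among all isotigs, shares close to those of the list. The median log2 ratio was 0.05 for the list and 0.00 for all isotigs. The isotig on the higher side was ADAMTS9 (isotig14762), with 2 control reads and 6 under strong light. Those on the lower side were MMP-14 (isotig19398), 2.30-fold lower (1.05 to 5.45), and ADAM12 (isotig07536), whose interval included 1. ADAMTS9 and isotig07536 were named after their values were seen.

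Within this small overall difference, the families lay on different sides. Summed MMP reads were 1.21-fold lower under strong light than in control (1.15 to 1.28), whereas summed ADAM reads were 1.19-fold higher (1.10 to 1.29). Single MMP isotigs were below 0 on the log2 scale in 9 of 12 cases (median -0.26) and single ADAM isotigs above 0 in 8 of 9 (median 0.29). Among all 18225 isotigs above the filter, 9122 were above 0 and 9057 below. The ADAM isotigs fall under ADAM10, ADAM12 and ADAM17 alone, so several can come from the same gene. Under size factors the summed log2 ratios were -0.29 for MMP and 0.24 for ADAM. ADAMTS reads were 1.14-fold higher with an interval from 0.858 to 1.53, although all 5 isotigs were above 0.

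The lower MMP total lay in the membrane-inserted isotigs, a division made after the values were seen. These 10 isotigs had 2137 reads in control and 1701 under strong light, 1.32-fold lower (1.23 to 1.40). The other 6 had 726 and 774 reads, a ratio of 1.02 (0.919 to 1.13). MMP-14 (isotig19745) was 1.42-fold lower (1.26 to 1.62), MMP-24 (isotig14227) 1.23-fold lower (1.13 to 1.35) and the second MMP-24 isotig (isotig13867) 1.43-fold lower (1.19 to 1.71). The other enzymes differed among themselves: MMP-20 (isotig23432) was 1.54-fold lower (1.09 to 2.17), MMP-3 (isotig11251) was 1.44-fold higher (1.09 to 1.92), and MMP-13 (isotig24202) had a ratio of 1.02 (0.887 to 1.18). All of these lay within 2-fold of control.

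On the higher side, ADAM10 had the clearest values. Its longer isotig (isotig13190) was 1.23-fold higher under strong light (1.10 to 1.37), and the shorter one (isotig27535) 1.91-fold higher (1.13 to 3.30). Summed ADAM12 reads had a ratio of 1.09 with an interval from 0.953 to 1.24, and summed ADAM17 reads one of 1.33 with an interval from 0.861 to 2.08.

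Strong light and darkness were also compared directly, a comparison that shares its libraries with those above. The list's share of reads was 1.84-fold higher under strong light than in the dark (1.75 to 1.94). At least 2-fold higher were 15 of 27 isotigs, beside 26.2% of all isotigs, and 0 were at least 2-fold lower, beside 8.09%. Among isotigs with a KEGG entry, 32.7% were at least 2-fold higher and 4.83% lower. The median log2 ratio was 1.27 for the list, 0.32 for all isotigs and 0.60 for isotigs with a KEGG entry. Under size factors 13 were at least 2-fold higher, beside 18.5% higher and 14.1% lower among all isotigs. By family, 8 of 9 ADAM isotigs, 4 of 5 ADAMTS isotigs and 3 of 12 MMP isotigs were at least 2-fold higher.

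Reads of ADAM isotigs were 3.26-fold higher under strong light than in the dark (2.92 to 3.65), and those of MMP isotigs 1.47-fold higher (1.38 to 1.56). MMP-13 (isotig24202) was 2.88-fold higher (2.37 to 3.51), the short ADAM10 isotig (isotig27535) 9.50-fold higher (3.79 to 30.6), and MMP-24 (isotig07199) at least 3.44-fold higher. MMP-14 (isotig19745) was nearly level between the exposed libraries, with 410 and 436 reads and a ratio of 1.10 (0.957 to 1.26). Its log2 ratio was 0.13 with library totals and turned to -0.20 with size factors.

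Shares within the protease reads do not depend on how whole libraries are scaled. ADAM isotigs made up 27.1% of the MMP and ADAM reads in control (Wilson interval 25.7 to 28.5), 19.4% in the dark (17.8 to 21.2) and 34.9% under strong light (33.4 to 36.4). The 3 intervals did not overlap, with control between the others. Within the ADAM reads, ADAM10 took 56.8%, 58.3% and 59.8% and ADAM12 39.6%, 37.6% and 36.2%, with intervals that overlapped across the libraries. Read shares are not scaled to isotig length, so they do not rank these enzymes by level.

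Within the MMP reads several enzymes had unequal shares across the libraries. MMP-13 took 12.9% in control (11.7 to 14.2), 8.16% in the dark (6.96 to 9.54) and 16.0% under strong light (14.6 to 17.5), again with intervals that did not overlap. MMP-28 had its largest share in the dark, with 5.59% in control (4.81 to 6.49), 8.62% in the dark (7.39 to 10.03) and 6.67% under strong light (5.75 to 7.72), an interval that overlapped both others. The MMP-20 share was 3.07% in control (2.50 to 3.77), 1.38% in the dark (0.929 to 2.04) and 2.42% under strong light (1.89 to 3.11), and the MMP-3 share was 3.004% (2.44 to 3.69), 4.08% (3.25 to 5.12) and 5.25% (4.44 to 6.20). For MMP-20 the dark and control intervals did not overlap, and for MMP-3 those of strong light and control did not. MMP-24 took 50.5%, 48.5% and 48.4%, and MMP-14 22.5%, 24.7% and 19.1%. Together the membrane-inserted isotigs held 74.6% in control (73.0 to 76.2), 75.8% in the dark (73.7 to 77.8) and 68.7% under strong light (66.9 to 70.5).

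**Figure D3:**
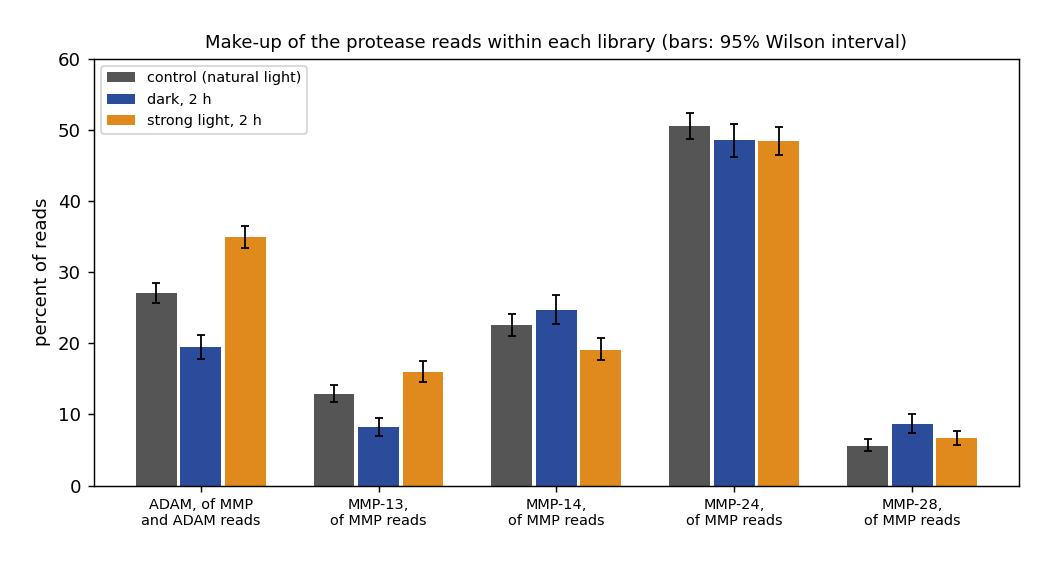
Percent of reads within each library, with 95% Wilson intervals as error bars: ADAM isotigs as a share of MMP and ADAM reads, and 4 enzymes as shares of MMP reads. The ADAM share is 27.1% in control, 19.4% in the dark and 34.9% under strong light, and the MMP-13 share shows the same order at 12.9%, 8.16% and 16.0%.

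Genes that work with these proteases were listed by name to place the list among them. A list headed activators and secreted inhibitors had 23 isotigs above the filter. In the dark 14 (60.9%) were at least 2-fold lower and 1 (4.35%) higher, beside 24.0% and 7.09% of all isotigs. Among isotigs with a KEGG entry 29.6% were lower and 4.23% higher. The list holds furin and other proprotein convertases, which remove propeptides, and alpha-2-macroglobulin, a plasma protein that traps proteases. It also holds 5 isotigs of the receptor LRP1, 1 of the membrane proteoglycan syndecan and 1 of tolloid-like protein 1, itself of the astacin family, which are neither activators of MMPs nor secreted inhibitors by name. Their median log2 ratio was -1.12, near that of the proteases. Both furin isotigs, 4 of 5 named LRP1, which takes up trapped proteases, 3 of 7 named alpha-2-macroglobulin, and the syndecan and tolloid-like isotigs were among the 14. The isotig on the higher side was also named alpha-2-macroglobulin. Under strong light 1 was higher and 1 lower than control by at least 2-fold, both named alpha-2-macroglobulin. That is 4.35% each, beside 7.77% higher and 7.22% lower among all isotigs.

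Read counts of an LRP1 isotig (isotig26055) were 902, 298 and 1004 in control, dark and strong light, 3.27-fold lower in the dark (2.87 to 3.74), on a hit with an E-value of 5e-10. An alpha-2-macroglobulin isotig (isotig20871) had 427, 147 and 489 reads, 3.14-fold lower (2.60 to 3.82), on a weaker hit of 2e-06. A second LRP1 isotig (isotig18605) had 31, 16 and 55 reads, 3.55-fold higher under strong light than in the dark (2.00 to 6.64). In each the dark library was the lowest.

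Matrix proteins and the enzymes that modify them, the substrates and neighbours of the proteases, had 48 isotigs above the filter. In the dark 20 (41.7%) were at least 2-fold lower and 3 (6.25%) higher, beside 24.0% and 7.09% of all isotigs. Among isotigs with a KEGG entry 29.6% were lower and 4.23% higher. The median log2 ratio of the matrix list was -0.81. The list also caught 5 isotigs named for HIF prolyl hydroxylase, whose target is a transcription factor, and 3 of these are among the 20. It caught the macrophage receptor with collagenous structure as well, an immune receptor at 0.405, 1.87 and 1.55 RPKM that is 1 of the 3 on the higher side and is also in the immune list. Collagen XVIII (isotig18183), of basement membranes, had 37, 9 and 89 reads, 4.45-fold lower in the dark (2.11 to 10.5) and 2.30-fold higher under strong light than in control (1.55 to 3.47). Nidogen (isotig22631), which links basement membrane networks, had 29, 8 and 62 reads, 3.92-fold lower in the dark (1.75 to 9.92) and 2.04-fold higher under strong light (1.29 to 3.29). A collagen galactosyltransferase isotig (isotig18726) had 44, 3 and 41 reads, 15.9-fold lower in the dark (5.08 to 79.9). As a share of all reads the matrix list differed less, at 2.53%, 2.27% and 2.84% in control, dark and strong light. Most of that share came from 6 isotigs named fibrillar collagen or lysyl oxidase-like protein, at 2.13%, 2.01% and 2.36%. The list's share therefore says little about its other isotigs.

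Other matrix-cutting enzymes, the cathepsins, legumain and hyaluronidase, lay mostly within 2-fold of control. Of 21 isotigs, 1 was at least 2-fold lower in the dark and 1 higher, although the median log2 ratio was -0.65. That is 4.76% each, beside 24.0% lower and 7.09% higher among all isotigs. The lower one was a cathepsin L isotig (isotig08977) with 257, 132 and 241 reads, 2.11-fold lower (1.70 to 2.62), and the higher one was named cathepsin C. Of the immune and coelomocyte list of 28 isotigs, 6 (21.4%) were at least 2-fold lower and 3 higher in the dark, near the 24.0% lower of all isotigs, with a median of -0.37 beside -0.31.

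**Figure D4:**
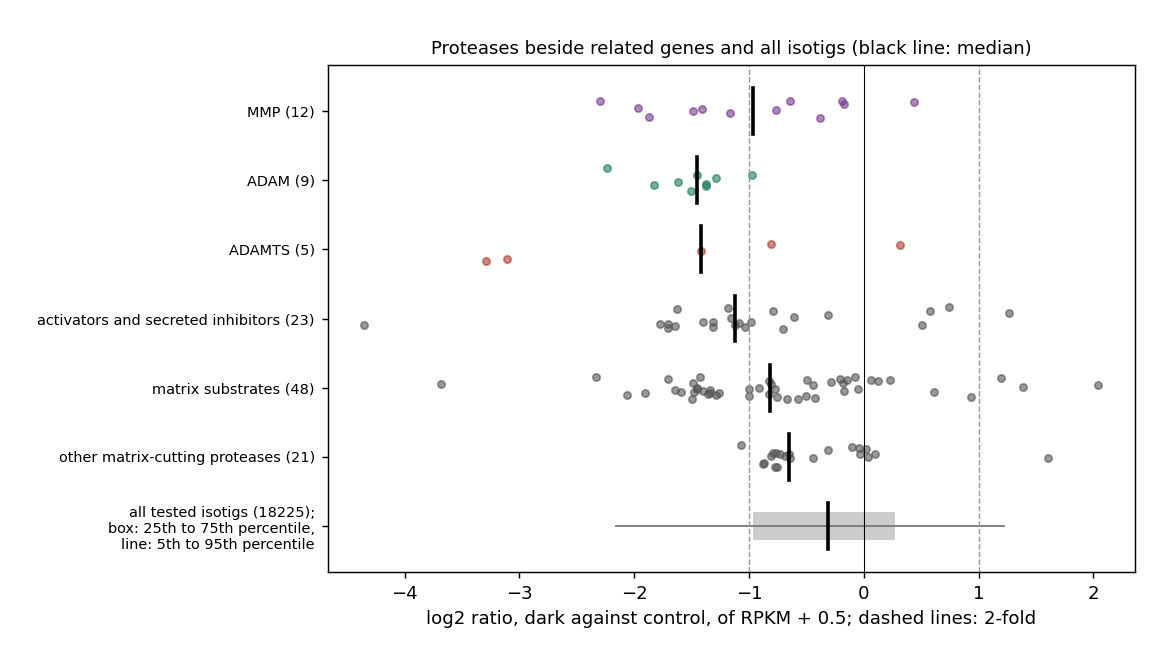
Log2 ratio of RPKM + 0.5, dark against control, with 1 point per isotig for the protease families and 3 related gene lists, and the spread of all 18225 isotigs as a box (25th to 75th percentile) and line (5th to 95th). Medians, drawn as black lines, are -1.45 for ADAM, -1.42 for ADAMTS, -1.12 for activators and secreted inhibitors, -0.96 for MMP, -0.81 for matrix substrates, -0.65 for other proteases and -0.31 for all isotigs.

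Beyond their names, 11 of the 36 isotigs had their best protein hit in the sea urchin Strongylocentrotus purpuratus. Of 19 with a gene ontology function, 18 had a peptidase or hydrolase term. Another orthology was listed for 16, and in 8 of these it scored at least 90% of the first.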

How the data were processed

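Gene expression was sequenced in 3 body wall libraries, 1 per condition, from oligo(dT)-enriched RNA copied from random hexamers, per the labels' protocols. CASAVA 1.5 was used, per the submitters' processing notes; assembler, aligner and read filters: not given in the sources used here. Deposited by the authors, per the file headers, were the count of uniquely assigned reads per isotig, isotig length, coverage as a percent of that length, and RPKM. Deposited counts summed to the stated library totals (1570290 to 1698268). An isotig missing from a table was given 0 counts, and a single read covered 49 bases. Reads can be split between isotigs of one gene or near-identical copies, and the protocol records no strand marking.

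From these files, ratios were taken of the deposited RPKM plus 0.5, on the log2 scale, for isotigs averaging 1 RPKM or more, and 2-fold differences were counted. Counting intervals are exact conditional binomial (Clopper-Pearson) 95% intervals of the ratio of reads per library total; Poisson intervals of levels and Wilson intervals of shares also cover counting error only. A count of 0 allows up to 3 counts, or 0.000177% to 0.000191% of a library. Conditions could not be tested, having 1 library each. The intervals were tested on simulated independent reads, the case they assume. That test cannot show how they hold for reads that are not independent or for the spread between animals. Python 3.11.15, pandas 2.3.3 and scipy 1.17.1 were used, and edgeR 4.0.16 for TMM factors alone.

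The members and the gene lists were chosen with earlier results of these data known. Isotigs were named with values when among the 3 highest of their family by mean RPKM, when at least 2-fold apart at a mean of at least 5 RPKM with a counting interval that excludes 1, when an astacin or meprin above the filter, or when at 0 reads in 1 library and at least 10 in another. Related genes were named, at most 3 per list, when at least 2-fold apart at a mean of at least 20 RPKM with such an interval. Alternatives were other scalings, pseudocounts, filters and fold limits, stricter name matches and RPKM summed per orthology. Sequences and genome positions were not used here.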

Additional observations from a re-analysis of the deposited data

How the results depend on the processing

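The number of isotigs at least 2-fold apart moved by more than 1.5 times under the following settings, and no isotig at least 2-fold apart changed direction under another scaling. In dark against control, where 17 of 27 were apart, a 4-fold limit left 4 (14.8%, beside 6.07% lower among all isotigs), summing RPKM per orthology gave 8 of 17 orthologies (ADAM10, ADAM12, ADAM17, ADAMTS2, ADAMTS6, ADAMTS16, MMP-13 and MMP-20), and a minimum mean of 20 reads, chosen after seeing the data, gave 11 of 18 beside 19.1% lower among all such isotigs. In light against dark, with 15 apart, these settings gave 5 (18.5%, beside 7.69% higher among all isotigs), 9 and 9. In light against control, with 3 apart, they gave 0, 1 and 0, and at the 4-fold limit 2.21% of all isotigs were higher and 2.16% lower. Every isotig with a read gave 5 of 36 (5.56% higher and 8.33% lower, beside 10.8% and 9.5% of all isotigs). A minimum of 5 RPKM gave 1 (4.76% lower, beside 4.41% higher and 4.18% lower among all isotigs). A 1.5-fold limit gave 6 (7.41% higher and 14.8% lower, beside 16.5% and 15.2% of all isotigs). No share over all isotigs was taken per orthology. Fewer features were counted per orthology and at higher minimums, but in dark against control the share per orthology was also lower. It was 47.1% per orthology, beside 63.0% per isotig, and the median log2 ratio was -0.88 per orthology, beside -1.38. In light against dark the shares were 52.9% and 55.6%. The list's median log2 ratio stayed on the same side under every scaling, pseudocount and filter. Under size factors the log2 ratio of summed reads in the dark was -1.13 for ADAM and -0.51 for MMP, in place of -1.45 and -0.83. TMM factors gave -1.14 and -0.52. The 20 most abundant isotigs held 18.9%, 23.5% and 18.6% of reads in control, dark and light; without them in the totals the list's median in the dark was -1.30. No paired analysis was possible because each condition has 1 library. For single isotigs depth is the limit: 8 of the 36 had a mean of at least 100 reads.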

Other observations

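Some pairs of isotigs of similar length under the same name had unequal reads, mostly on low counts. The 2 astacin isotigs, 1753 and 1621 bases long, had 103 and 5 reads over the libraries, and the 2 ADAMTS20 isotigs, 2050 and 2049 bases long, had 7 and 1. The 2 longest MMP-24 isotigs, both of 2271 bases, had 17 and 7, while the 2 ADAM12 isotigs of 1527 and 1528 bases had 26 and 23. The read coverage of these isotigs was low, at most 16.2% of an isotig in any library. Whether each pair stands for splice forms, alleles or copies was not tested.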
